A study of Mus musculus with 32 samples.

Results

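Liver RNA from mice kept under a long light photoperiod (LL) was compared between zeitgeber time (ZT, hours on the light schedule) 12 and ZT0. The comparison took the 4 libraries labelled LL ZT12 and the 4 labelled LL ZT0, 8 of the 32 libraries of the study. All mice were males of the inbred strain C3H/HeNCrl fed a high fat diet, and the 32 livers fall into 8 groups of 4 by photoperiod (short light, SL, or LL) and sampling time (ZT0, ZT6, ZT12 or ZT18). The groups compared here share genotype, sex, diet and photoperiod and differ in the labels by sampling time alone. Neither the daily hours of light nor the reference point of ZT0 was given in the sources used here. Each library was labelled as a separate sample and the labels record no batch or day.

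The mammalian clock is a feedback loop of transcription. BMAL1 (gene Arntl) pairs with CLOCK or NPAS2 and switches on genes through E-box sequences, among them the period and cryptochrome genes, whose proteins return to block the pair. A further arm runs through the REV-ERB receptors (Nr1d1 and Nr1d2), which repress Arntl and Npas2 at ROR elements, and the loop drives output factors such as DBP, TEF and HLF, which bind D-box sequences. In liver these factors time bile acid, lipid, glucose and drug metabolism around feeding.

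Total counts of the 8 libraries ran from 9095615 to 26524188 reads, and levels are given as CPM (reads scaled to library size, so levels of different genes are not compared). ZT12 replicate 3 stood apart. Its mean correlation with group mates was 0.969, against 0.981 to 0.986 for the other 7 libraries. Short transcripts were high in it and long ones low. In the quartile of genes with the least exon sequence (median 1501 bases) it lay 0.27 above its 3 group mates on the log2 scale (median over genes), and in the longest quartile (median 8761 bases) 0.26 below them. The other 7 libraries stayed between -0.12 and 0.12 of their mates in every quartile, as the plot of deviation by length shows. Hipk2 (5.37 against 37.5 to 50.9 CPM) and Pdpr (5.59 against 37.3 to 43.9 CPM) were among the 6 genes farthest below the other ZT12 libraries, while the metallothionein Mt1 (69.3 against 6.96 to 21.6 CPM) was among the 6 farthest above. ZT0 replicate 2 differed in another way: its summed level of 12 skeletal muscle markers was 122 CPM, against 0.797 to 8.51 CPM in the other 7 libraries.

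**Figure D1:**
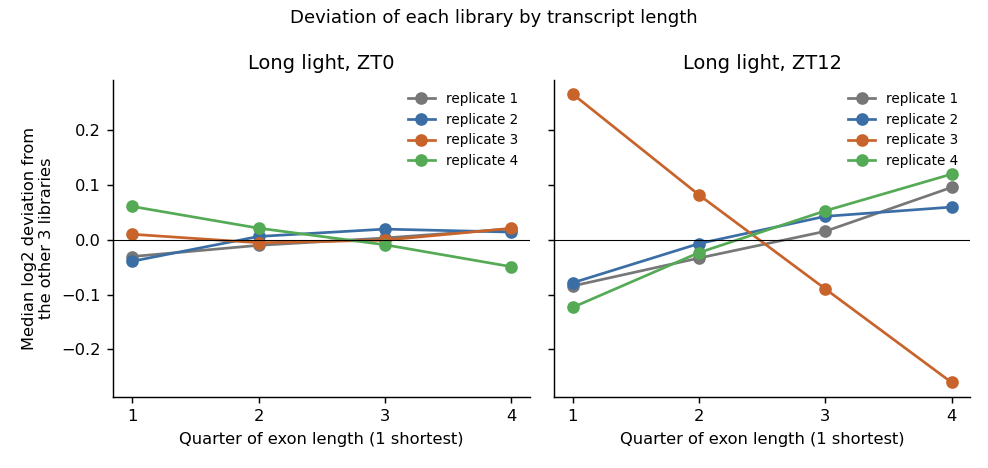
Median log2 deviation of each library from the other 3 of its group (y axis), by quartile of exon length (x axis, 1 shortest to 4 longest), for LL ZT0 (left) and LL ZT12 (right); each line is a library. ZT12 replicate 3 runs from 0.27 in the shortest to -0.26 in the longest quartile, while every other library stays between -0.12 and 0.12.

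Between ZT0 and ZT12 in long light, 1985 of 14456 tested genes changed (13.7%, edgeR quasi-likelihood test, Benjamini-Hochberg adjusted p under 0.05). Of these, 1063 rose (7.35% of tested genes) and 922 fell (6.38%). Most changes were modest. The median rise was 1.42-fold and the median fall 1.48-fold, and 184 risen and 208 fallen genes passed 2-fold (a log2 change of 1), as the plot of fold change against level shows. The risen genes took 9.18% ± 0.171 of all counts at ZT0 and 13.1% ± 0.875 at ZT12 (SD, n = 4), and the fallen genes 6.9% ± 0.259 and 4.25% ± 0.36. In 1429 of the called genes (72%) the 4 ZT12 values did not overlap the 4 ZT0 values, against 13.5% of all tested genes.

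The number called depended on which libraries were in the fit, and the cause was not tested. The fit above used all 32 libraries, and a fit on the 8 libraries alone called 664 genes, or 1494 when ZT12 replicate 3 was also left out. In the fit of all libraries but ZT12 replicate 3, 1773 genes were called, 1329 of them (67% of the 1985) in both fits and none with a changed sign.

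**Figure D2:**
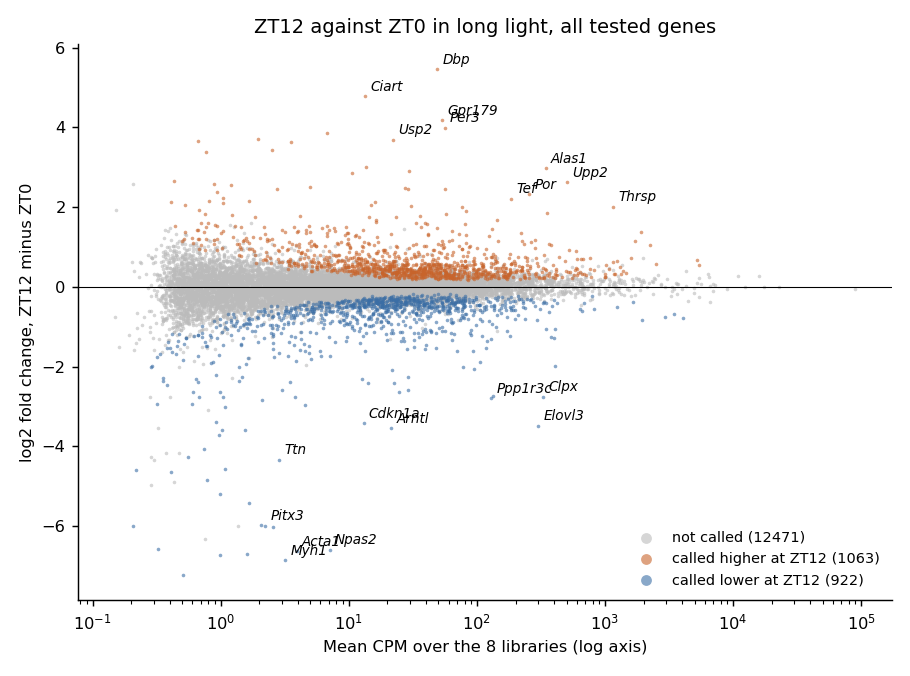
Log2 fold change, ZT12 minus ZT0 (y axis), against the mean CPM over the 8 libraries (x axis, log scale), 1 point per tested gene; orange points were called higher at ZT12 (1063) and blue points lower (922). Dbp and Ciart are the highest labelled points, at 5.46 and 4.78, and the muscle genes Myh1 and Acta1 lie low near Npas2.

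All 3 tested activators of the clock loop were lower at ZT12. Arntl (chr7:113207465-113314126, gene bounds on GRCm38 as for all genes here), which encodes BMAL1, was at 36.7, 39.7, 42.6 and 38 CPM at ZT0 and 4.75, 2.61, 1.76 and 4.32 CPM at ZT12. The groups did not overlap, and every ZT12 library lay far below every ZT0 library, an 11.7-fold fall with a log2 fold change of -3.55 ± 0.27 (SE, adjusted p = 9.08e-11). Its partner Clock (chr5:76209868-76304792) was at 74.4, 62, 74 and 72.2 CPM at ZT0 and 34, 20.6, 14.9 and 27.8 CPM at ZT12. Clock also fell without overlap but by less, 2.9-fold, with a log2 fold change of -1.54 ± 0.20 (SE, adjusted p = 1.50e-06). Npas2 (chr1:39193731-39363236), the alternative partner, was at 19.9, 9.13, 12.4 and 14.6 CPM at ZT0 and 0, 0.127, 0.316 and 0.0757 CPM at ZT12. At ZT12 its transcript was nearly absent, at 0, 2, 7 and 2 reads, so the fitted log2 fold change of -6.6 ± 0.51 (SE, adjusted p = 1.12e-10) rests on few reads and its size is uncertain. In the 4 sampling times of long light, the means of all 3 were highest at ZT0 and lowest at ZT12. Without ZT12 replicate 3, which was the lowest ZT12 library for Arntl and Clock, the log2 fold changes were -3.31 for Arntl and -1.36 for Clock.

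Of the 10 repressors of the loop, 8 rose and Cry1 fell (median log2 fold change 2.34, against -0.00348 over all tested genes). The counts were the same without ZT12 replicate 3 and without ZT0 replicate 2. The period genes, whose products carry the negative feedback, rose together but by different amounts. Per1 (chr11:69095217-69109960) was at 7.92, 10.7, 5.17 and 8.96 CPM at ZT0 and 47.4, 38, 63.6 and 38.4 CPM at ZT12. Per2 (chr1:91415982-91459324) was at 36.9, 37.9, 27.8 and 38 CPM at ZT0 and 79.8, 84.8, 109.5 and 99.8 CPM at ZT12. Per3 (chr4:151003652-151044665) was at 5.43, 6.03, 8.69 and 6.77 CPM at ZT0 and 91.2, 106, 128 and 95.6 CPM at ZT12. No ZT12 value of any of the 3 reached down to a ZT0 value, and the rises were 5.72-fold for Per1, 2.66-fold for Per2 and 15.6-fold for Per3. Their log2 fold changes were 2.49 ± 0.29 (SE, adjusted p = 2.55e-07), 1.41 ± 0.19 (SE, adjusted p = 2.23e-06) and 3.99 ± 0.27 (SE, adjusted p = 1.00e-11), respectively.

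The cryptochromes moved in opposite directions. Cry1 (chr10:85131700-85185064) was at 35.1, 40.1, 31 and 41.3 CPM at ZT0 and 16.8, 14.6, 9.7 and 16.4 CPM at ZT12. It fell without overlap, with a log2 fold change of -1.37 ± 0.14 (SE, adjusted p = 2.10e-08). The Cry1 means at ZT0, ZT6, ZT12 and ZT18 were 36.9 ± 4.75, 13.8 ± 1.68, 14.4 ± 3.25 and 44.3 ± 4.28 CPM (SD, n = 4). Neither time compared had the extreme mean, but the ZT6 and ZT12 means differed by less than their SD. Cry2 (chr2:92403646-92434043) was at 34.9, 39.5, 39.2 and 37.6 CPM at ZT0 and 49.7, 64.1, 48.4 and 58.7 CPM at ZT12, a rise of 1.46-fold with no overlap (log2 fold change 0.55 ± 0.10 SE, adjusted p = 1.96e-04). Ciart (chr3:95878503-95882251), which encodes a further repressor of the BMAL1 pair, was at 0.513, 1.29, 0.769 and 1.06 CPM at ZT0 and 17.4, 20.8, 51.9 and 13.4 CPM at ZT12. All ZT12 values were far above ZT0, with ZT12 replicate 3 the highest. The log2 fold change was 4.78 ± 0.49 (SE, adjusted p = 2.68e-08), and 4.18 without that library. Of the paired E-box repressors, Bhlhe41 rose from a low level (0.356 ± 0.154 CPM at ZT0 and 1.71 ± 0.76 CPM at ZT12, log2 fold change 2.23 ± 0.51 SE, adjusted p = 0.00292). Its call was lost when ZT12 replicate 3 and ZT0 replicate 2 were both left out, at 1.66 (adjusted p = 0.0696). Bhlhe40 did not pass the test (81.9, 113, 88.8 and 145 CPM at ZT0 and 222, 152, 174 and 165 CPM at ZT12, log2 fold change 0.73 ± 0.27 SE, adjusted p = 0.0691), although its groups did not overlap. It was called without a filter on low counts (adjusted p = 0.0121), with the 16 long light libraries (0.0394), without ZT0 replicate 4 (0.0389) and with the 8 libraries less ZT12 replicate 3 (0.0256).

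The REV-ERB genes both rose. Nr1d1 (chr11:98767932-98775333) was at 4.69, 14.1, 10.7 and 6.51 CPM at ZT0 and 37.3, 60.6, 61.2 and 38.1 CPM at ZT12. Nr1d2 (chr14:18204054-18239127) was at 14.1, 23.1, 18.1 and 14.1 CPM at ZT0 and 93.8, 99.9, 88.1 and 100.5 CPM at ZT12. The ZT12 values of both lay above all ZT0 values, and the rises were alike in size, 5.48-fold and 5.51-fold (log2 fold changes 2.45 ± 0.31 SE, adjusted p = 1.22e-06 and 2.46 ± 0.19 SE, adjusted p = 1.15e-10). Over the day in long light they differed in shape. The Nr1d1 means at ZT0, ZT6, ZT12 and ZT18 were 8.99 ± 4.23, 87.1 ± 18.2, 49.3 ± 13.4 and 7.21 ± 2.07 CPM (SD, n = 4), highest at ZT6, while those of Nr1d2 were 17.4 ± 4.29, 59 ± 9.62, 95.6 ± 5.8 and 35.9 ± 7.35 CPM, highest at ZT12. Rora, whose receptor activates at the same elements, did not pass the test, with a log2 fold change of -0.33 ± 0.20 (SE, adjusted p = 0.288).

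**Figure D3:**
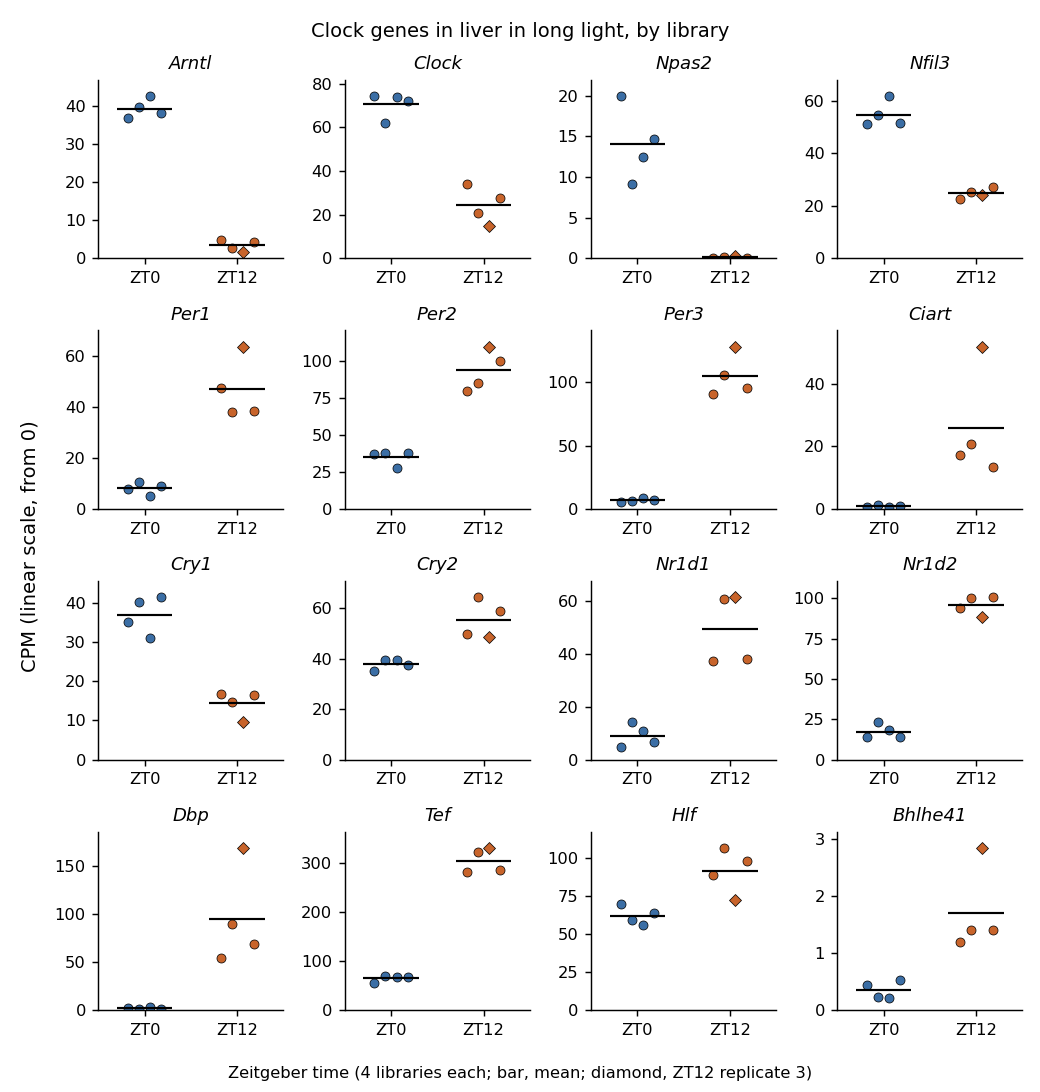
CPM (y axes, linear from 0) of 16 clock genes in the 4 LL ZT0 (blue) and 4 LL ZT12 (orange) libraries; bars are group means and diamonds mark ZT12 replicate 3. Arntl, Clock, Npas2, Nfil3 and Cry1 are low at ZT12 and the other 11 high, with no overlap between the groups of any gene shown.

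Among the output factors the largest rise of all named genes was that of Dbp (chr7:45705088-45710203), which encodes a D-box activator. Dbp was at 2.2, 1.87, 3.08 and 1.79 CPM at ZT0 and 54, 89.7, 168 and 68.9 CPM at ZT12. The ZT12 libraries spread widely, from 54 to 168 CPM, yet the lowest was many times the highest at ZT0. The rise was 42.6-fold, with a log2 fold change of 5.46 ± 0.44 (SE, adjusted p = 2.07e-10), and 5.04 without ZT12 replicate 3. Tef (chr15:81802421-81826863), a relative of Dbp, was at 56, 70.8, 68.8 and 68.8 CPM at ZT0 and 282, 323, 331 and 287 CPM at ZT12, with little spread in either group. Its log2 fold change was 2.21 ± 0.14 (SE, adjusted p = 6.26e-12). Hlf, the third of these D-box activators, rose by less (62 ± 5.82 CPM at ZT0 and 91.2 ± 14.7 CPM at ZT12, log2 fold change 0.56 ± 0.15 SE, adjusted p = 0.00959). Nfil3 (chr13:52967209-52981073), which encodes a repressor acting at the same D-box, moved the other way: it was at 51.3, 54.5, 61.9 and 51.4 CPM at ZT0 and 22.6, 25.2, 24.2 and 27.3 CPM at ZT12, and fell by 2.21-fold with no overlap (log2 fold change -1.14 ± 0.13 SE, adjusted p = 2.05e-07).

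Of 11 tested kinases, phosphatases and ubiquitin-pathway genes that act on clock proteins, Usp2 alone was called. Usp2 (chr9:44067021-44095627), a deubiquitinase, was at 2.35, 4.62, 2.75 and 2.72 CPM at ZT0 and 39.5, 37.5, 52 and 35 CPM at ZT12, a 13.2-fold rise without overlap (log2 fold change 3.69 ± 0.30 SE, adjusted p = 2.69e-10). The casein kinase genes Csnk1d and Csnk1e had log2 fold changes of -0.15 ± 0.08 (SE, adjusted p = 0.229) and 0.27 ± 0.14 (SE, adjusted p = 0.19). Further members, Fbxl21, Btrc, Fbxw11, Gsk3b, Ppp1cb, Cipc and Kdm5a, had values from -0.33 (Ppp1cb) to 0.18 (Cipc), with no adjusted p under 0.227 (Fbxw11). ZT12 replicate 3 was the lowest ZT12 library in 5 of these 7, as in Fbxw11 (40.7, 41.4, 39.7 and 42.2 CPM at ZT0 and 40.6, 38.6, 18.5 and 40.5 CPM at ZT12). Several clock genes overlap another annotated gene, such as Dbp (Sphk2, opposite strand), Nr1d1 (Thra, opposite strand), Per3 (Camta1, same strand) and Npas2 (Gm3617, same strand). The sources used here do not say whether reads were counted by strand, so reads of such neighbours cannot be told apart.

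Promoter windows of 5 clock genes are shown because they carry the elements through which the loop is known to act. They come from RefSeq (GRCm38.p6), run 5′ to 3′ on the gene's strand from 250 bases before to 50 bases after a start site, and have the searched motif in capitals: the E box CACGTG in Ciart and Per1, the D box (TTATGTAA or TTACGTAA) in Per3 and the ROR element TAGGTCA in Arntl and Nfil3, each searched on both strands.
Ciart (chr3:95882179-95882478, minus strand): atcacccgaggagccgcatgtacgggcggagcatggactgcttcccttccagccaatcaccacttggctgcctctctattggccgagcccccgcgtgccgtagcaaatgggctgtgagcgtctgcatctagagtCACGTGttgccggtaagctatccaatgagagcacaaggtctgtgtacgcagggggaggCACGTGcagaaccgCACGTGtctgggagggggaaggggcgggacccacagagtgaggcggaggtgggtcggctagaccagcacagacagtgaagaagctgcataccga
Per1 (chr11:69098699-69098998, plus strand): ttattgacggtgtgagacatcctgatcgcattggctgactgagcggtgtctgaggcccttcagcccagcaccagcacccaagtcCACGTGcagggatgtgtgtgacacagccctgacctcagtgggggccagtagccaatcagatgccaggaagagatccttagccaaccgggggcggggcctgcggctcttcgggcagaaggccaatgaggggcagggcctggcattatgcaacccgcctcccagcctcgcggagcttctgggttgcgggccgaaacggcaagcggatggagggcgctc
Per3 (chr4:151044616-151044915, minus strand): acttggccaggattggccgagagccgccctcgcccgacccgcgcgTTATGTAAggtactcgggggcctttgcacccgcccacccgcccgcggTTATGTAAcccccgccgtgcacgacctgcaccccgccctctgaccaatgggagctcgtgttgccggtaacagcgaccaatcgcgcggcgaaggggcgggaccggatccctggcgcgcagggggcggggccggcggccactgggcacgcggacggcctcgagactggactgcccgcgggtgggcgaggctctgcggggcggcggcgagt
Arntl (chr7:113207261-113207560, plus strand): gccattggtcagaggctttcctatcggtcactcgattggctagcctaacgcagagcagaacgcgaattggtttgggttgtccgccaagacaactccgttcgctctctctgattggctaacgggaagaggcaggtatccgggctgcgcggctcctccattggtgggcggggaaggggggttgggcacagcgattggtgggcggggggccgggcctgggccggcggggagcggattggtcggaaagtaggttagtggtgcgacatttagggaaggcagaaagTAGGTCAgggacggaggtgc
Nfil3 (chr13:52980990-52981289, minus strand): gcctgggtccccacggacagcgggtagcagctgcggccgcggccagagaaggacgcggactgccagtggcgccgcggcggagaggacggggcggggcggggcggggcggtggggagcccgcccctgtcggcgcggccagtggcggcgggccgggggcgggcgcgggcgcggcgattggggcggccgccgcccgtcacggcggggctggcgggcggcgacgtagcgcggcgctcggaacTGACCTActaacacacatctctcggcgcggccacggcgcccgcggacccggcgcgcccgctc
The Ciart window held 3 E boxes, starting 116, 58 and 44 bases before the start site, and the Per1 window shown had 1, at 166 bases before. The table lists 2 windows each for Per1 and Arntl, and in each gene the window not shown lacked the motif. The Per1 window shown belongs to a start site inside the gene bounds given above. Per3 had 2 D boxes, at 205 and 158 bases before. The ROR element began 12 bases before the start site in Nfil3 and at base 31 after it in Arntl. The windows with E or D boxes shown here belong to genes that rose and those with ROR elements to genes that fell. These genes and motifs were chosen by name and only windows with a match are shown, so this is not a result. Other genes depart from it. Cry1, which fell, has an E box in its window, as has the uncalled Cipc in 1 of its 2. The windows listed for Clock and Npas2, which fell, held no ROR element, and those for Dbp, Nr1d1 and Usp2 held none of these 3 motifs. Over all 32851 windows in the table, 7.15% held the E box, 1.06% the D box and 2.61% the ROR element. Shares among the called genes are not given, since only 72.5% of tested genes matched a window by symbol and a comparison of sets would be void. These matches describe letters, not binding.

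Outside the clock loop, several of the largest rises belonged to metabolic genes. Noct, which encodes nocturnin and is known for its rhythm, was at 7.04, 8.08, 2.86 and 8.7 CPM at ZT0 and 48.2, 46.4, 51.9 and 60.8 CPM at ZT12. Upp2, which breaks down uridine, was at 115, 140, 169 and 141 CPM at ZT0 and 865, 814, 1064 and 724 CPM at ZT12. Both rose without overlap, by 7.78-fold and 6.14-fold (log2 fold changes 2.92 ± 0.43 SE, adjusted p = 1.49e-05 and 2.62 ± 0.20 SE, adjusted p = 9.08e-11). Ppp1r3g, a subunit that directs phosphatase to glycogen, rose from a very low level (0.513, 0, 1.21 and 0.266 CPM at ZT0 and 2.97, 3.63, 8.62 and 2.99 CPM at ZT12). All its ZT12 values were above ZT0, with replicate 3 far above the rest, and its log2 fold change was 3.43 ± 0.66 (SE, adjusted p = 4.20e-04), and 2.92 without that library. The low-level cytochrome P450 gene Cyp2g1 also rose (0.843 ± 0.353 CPM at ZT0 and 4.69 ± 1.47 CPM at ZT12, log2 fold change 2.46 ± 0.34 SE, adjusted p = 4.86e-06). Gpr179 had a large fitted change (3.67, 11.2, 4.29 and 2.52 CPM at ZT0 and 83.8, 30.9, 287 and 5.72 CPM at ZT12, log2 fold change 4.18 ± 1.22 SE, adjusted p = 0.0200), but its groups overlapped and the call was lost without ZT12 replicate 3, at 2.82 (adjusted p = 0.134), and without ZT0 replicates 1, 3 or 4, at adjusted p of 0.0637, 0.052 and 0.0604.

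Large falls included Clpx, the ATPase of a mitochondrial protease, and Dtx4, a ubiquitin ligase of Notch signalling. Clpx was at 609, 505, 590.1 and 589.9 CPM at ZT0 and 89.8, 94.1, 66.1 and 88.9 CPM at ZT12. Dtx4 was at 43.4, 33.1, 35.5 and 39.3 CPM at ZT0 and 7.66, 6.75, 5.19 and 8.93 CPM at ZT12. In both, the groups were far apart and the replicates close, and the log2 fold changes were -2.76 ± 0.18 (SE, adjusted p = 6.48e-12) and -2.4 ± 0.16 (SE, adjusted p = 6.26e-12). Cdkn1a, which encodes the cell cycle inhibitor p21, fell 10.8-fold (23.8 ± 2.13 CPM at ZT0 and 2.2 ± 0.182 CPM at ZT12, SD, n = 4). Slc34a2, a phosphate transporter, fell from 45, 14, 15 and 28 reads at ZT0 to 4, 1, 0 and 7 at ZT12 (log2 fold change -3.6 ± 0.62 SE, adjusted p = 1.27e-04). Pnkd fell 2.56-fold with little spread (171 ± 14.5 CPM at ZT0 and 66.8 ± 2.23 CPM at ZT12).

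Of the 12 largest falls, 8 were skeletal muscle genes whose level at ZT0 came mainly from replicate 2. Myh1, a myosin heavy chain, was at 1.25, 24, 0 and 0 CPM at ZT0 and 0, 0.0637, 0.0902 and 0.0379 CPM at ZT12. Acta1, skeletal actin, was at 1.83, 29.1, 0 and 0 CPM at ZT0 and 0, 0.127, 0.18 and 0 CPM at ZT12. The groups overlapped in both, since ZT0 replicates 3 and 4 had none. The fitted log2 fold changes were -6.86 ± 1.96 (SE, adjusted p = 0.0186) for Myh1 and -6.63 ± 1.9 (SE, adjusted p = 0.0178) for Acta1. Without ZT0 replicate 2 they were -2.98 (adjusted p = 0.546) and -3.0 (adjusted p = 0.522). The others were Ckm, Atp2a1, Tnnt3, Myh2, Mybpc1 and Ttn, with values from -6.71 (Ckm) to -4.34 (Ttn), and none of the 8 was called without that library. Of the 11 tested markers of skeletal muscle, 9 were called lower with all libraries and 0 without ZT0 replicate 2.

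Lists of genes are described below by the number of members that rose and fell, to be read against 7.35% and 6.38% over all tested genes. The share called in either direction rose with level, from 5.73% in the lowest quartile of mean CPM to 21.6% in the highest (from 36.2 CPM). The lists were not matched for level, so a high count in a list of strongly expressed genes may reflect level. Counts of risen and fallen members follow in brackets for the fits without ZT12 replicate 3, without ZT0 replicate 2 and without both. The fit on the 8 libraries alone called fewer members in many lists. In it NAD metabolism had 2 higher and 0 lower, conjugation enzymes 1 and 0, lipid droplets and lipases 0 and 1, and heat shock chaperones 0 and 0. Fatty acid and triglyceride synthesis kept 8 and 1, and fasting and gluconeogenesis 7 and 1. Called genes of lipid synthesis were more often higher than lower at ZT12. In cholesterol synthesis and uptake, 10 of the 25 tested genes rose and 1 fell (median log2 fold change 0.28; counts 9 and 0 with median 0.31 without ZT12 replicate 3, 9 and 0 with median 0.32 without ZT0 replicate 2, 9 and 0 without both). Nsdhl, an enzyme of the late steps, was at 77.4, 82, 93.7 and 87.8 CPM at ZT0 and 104, 142, 134 and 134 CPM at ZT12, with no overlap (log2 fold change 0.59 ± 0.10 SE, adjusted p = 1.54e-04). Msmo1, a sterol monooxygenase, was at 159, 210.3, 201 and 169 CPM at ZT0 and 262, 357, 347 and 263 CPM at ZT12, also higher in every ZT12 library (log2 fold change 0.73 ± 0.14 SE, adjusted p = 2.79e-04). The member called lower, Srebf2, lost its call without ZT12 replicate 3 and without ZT0 replicate 2, and the fit on the 8 libraries alone called 4 higher and 0 lower.

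In fatty acid and triglyceride synthesis, 9 of the 22 tested genes rose and 1 fell (median log2 fold change 0.54; counts 10 and 2 with median 0.70 without ZT12 replicate 3, 8 and 1 with median 0.45 without ZT0 replicate 2, 9 and 2 without both). Thrsp, a lipogenic factor, was at 471, 369, 498 and 493 CPM at ZT0 and 1796, 1613, 2369 and 1584 CPM at ZT12. All ZT12 libraries were above all ZT0 libraries, a rise of 4.03-fold (log2 fold change 2.01 ± 0.23 SE, adjusted p = 2.17e-07). The desaturase gene Fads2 and the phosphatidate phosphatase gene Lpin2 rose with log2 fold changes of 1.06 ± 0.14 (SE, adjusted p = 3.29e-06) and 1.17 ± 0.19 (SE, adjusted p = 3.80e-05). Elovl3 (chr19:46131897-46135694), an elongase of very long chain fatty acids, went the other way. It was at 484, 672, 493 and 550 CPM at ZT0 and 36.3, 52.3, 52.3 and 55.6 CPM at ZT12, with no overlap and little spread, an 11.2-fold fall (log2 fold change -3.48 ± 0.24 SE, adjusted p = 1.00e-11). Pitx3, annotated on the opposite strand over Elovl3, was listed at 74, 100, 16 and 67 reads at ZT0 and 1, 2, 0 and 2 at ZT12, and reads of this pair cannot be told apart.

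In fatty acid use, the share of genes that fell was close to that over all tested genes. In fatty acid oxidation and ketone synthesis, 5 of the 28 tested genes rose and 2 fell (median log2 fold change 0.06; counts 6 and 3 with median 0.12 without ZT12 replicate 3, 5 and 2 with median 0.03 without ZT0 replicate 2, 5 and 2 without both). Cpt1a, the gate of mitochondrial oxidation, rose (494 ± 32.4 CPM at ZT0 and 797 ± 168 CPM at ZT12, log2 fold change 0.69 ± 0.12 SE, adjusted p = 1.18e-04), and ZT12 replicate 3 was its lowest ZT12 library. Acot3, a peroxisomal thioesterase, was at 2.71, 0.995, 5.28 and 3.58 CPM at ZT0 and 34.6, 31.6, 20.4 and 10.3 CPM at ZT12, all above ZT0 (log2 fold change 3.02 ± 0.54 SE, adjusted p = 1.89e-04), and its neighbour Acot4 rose with 1.32 ± 0.24 (SE, adjusted p = 2.39e-04). These family members are close copies, so their reads may be shared. The receptor gene Ppard was at 50.9, 44.8, 39.6 and 57.7 CPM at ZT0 and 9.05, 9.49, 11.8 and 9.62 CPM at ZT12, a 4.83-fold fall without overlap (log2 fold change -2.27 ± 0.15 SE, adjusted p = 6.48e-12). The other member that fell, named after its values were seen, was the kinase gene Pdk4, at 38.5, 22.6, 60.02 and 20.5 CPM at ZT0 and 6.9, 11.2, 5.87 and 9.01 CPM at ZT12 (log2 fold change -2.09 ± 0.44 SE, adjusted p = 0.00114). In lipid droplets and lipases, 3 of the 16 tested genes rose and 1 fell (median log2 fold change 0.17; counts 4 and 1 with median 0.07 without ZT12 replicate 3, 2 and 2 with median 0.17 without ZT0 replicate 2, 2 and 2 without both). Plin5, a droplet coat protein, fell (-0.73 ± 0.14 SE, adjusted p = 4.79e-04) and Pnpla2, the lipase ATGL, rose (0.57 ± 0.12 SE, adjusted p = 0.00115). The 2 other members called, Lipe and Angptl4, were each lost in fits with a library left out. Lipe was lost without ZT0 replicate 1 (adjusted p = 0.0707) or ZT12 replicate 2 (0.0562). Angptl4 was lost without ZT12 replicate 3, at 0.37 (adjusted p = 0.234), ZT12 replicate 1 (0.0682), or ZT0 replicates 1, 2 or 4 (0.0696, 0.155 and 0.134).

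The fasting and gluconeogenesis genes gave the highest share of rises among the metabolic lists: 11 of the 17 tested genes rose and 1 fell (median log2 fold change 0.60; counts 11 and 1 with median 0.64 without ZT12 replicate 3, 10 and 1 with median 0.79 without ZT0 replicate 2, 11 and 0 without both). Pck1, the gate of glucose synthesis, was at 839, 1431, 1214 and 779 CPM at ZT0 and 2369, 2684, 3067 and 3011 CPM at ZT12. The ZT12 values were close together and all above ZT0 (log2 fold change 1.39 ± 0.23 SE, adjusted p = 6.45e-05). The enzyme genes G6pc, Fbp1 and Pcx of the same list were not called (log2 fold changes -0.14, 0.19 and 0.02). Of these, Fbp1 was called without ZT12 replicate 3, at 0.31 (adjusted p = 0.00265). Sds, a serine dehydratase, was at 54.3, 92, 56.7 and 71.5 CPM at ZT0 and 163, 179, 358 and 177 CPM at ZT12, also without overlap (log2 fold change 1.67 ± 0.19 SE, adjusted p = 2.31e-07). The transcription factor genes Foxo3 and Klf15 rose with 0.86 ± 0.10 (SE, adjusted p = 1.82e-07) and 0.76 ± 0.12 (SE, adjusted p = 4.23e-05). Cebpb, a further factor in the list, named after its values were seen, turned on a single library: it was at 10.6, 9.48, 4.62 and 6.04 CPM at ZT0 and 13.2, 10.8, 62.8 and 12.7 CPM at ZT12, called at 1.68 ± 0.41 (SE, adjusted p = 0.00512), and not called without ZT12 replicate 3, at 0.65 (adjusted p = 0.157). The insulin receptor substrate gene Irs2 fell (-1.15 ± 0.29 SE, adjusted p = 0.00664), a call lost when ZT12 replicate 3 and ZT0 replicate 2 were both left out (adjusted p = 0.0961).

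Among genes of glucose use and glycogen storage, 6 of the 20 tested genes rose and 1 fell (median log2 fold change 0.24; counts 8 and 1 with median 0.30 without ZT12 replicate 3, 3 and 1 with median 0.21 without ZT0 replicate 2, 7 and 2 without both). Gys2, the liver glycogen synthase, was at 150.3, 118, 150.4 and 140.4 CPM at ZT0 and 283, 344, 340.1 and 275 CPM at ZT12, a 2.22-fold rise with no overlap (log2 fold change 1.15 ± 0.11 SE, adjusted p = 1.49e-08). Ppp1r3c, which like Ppp1r3g directs phosphatase to glycogen, was at 222, 209.5, 205 and 266 CPM at ZT0 and 37.9, 37.5, 23.7 and 31.7 CPM at ZT12. It fell by 6.91-fold (log2 fold change -2.79 ± 0.25 SE, adjusted p = 1.65e-09), opposite to the low-level Ppp1r3g. Ppp1r3b, of the same gene family, was not called (359 ± 55.8 CPM at ZT0 and 418 ± 82 CPM at ZT12, log2 fold change 0.22 ± 0.16 SE, adjusted p = 0.408).

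**Figure D4:**
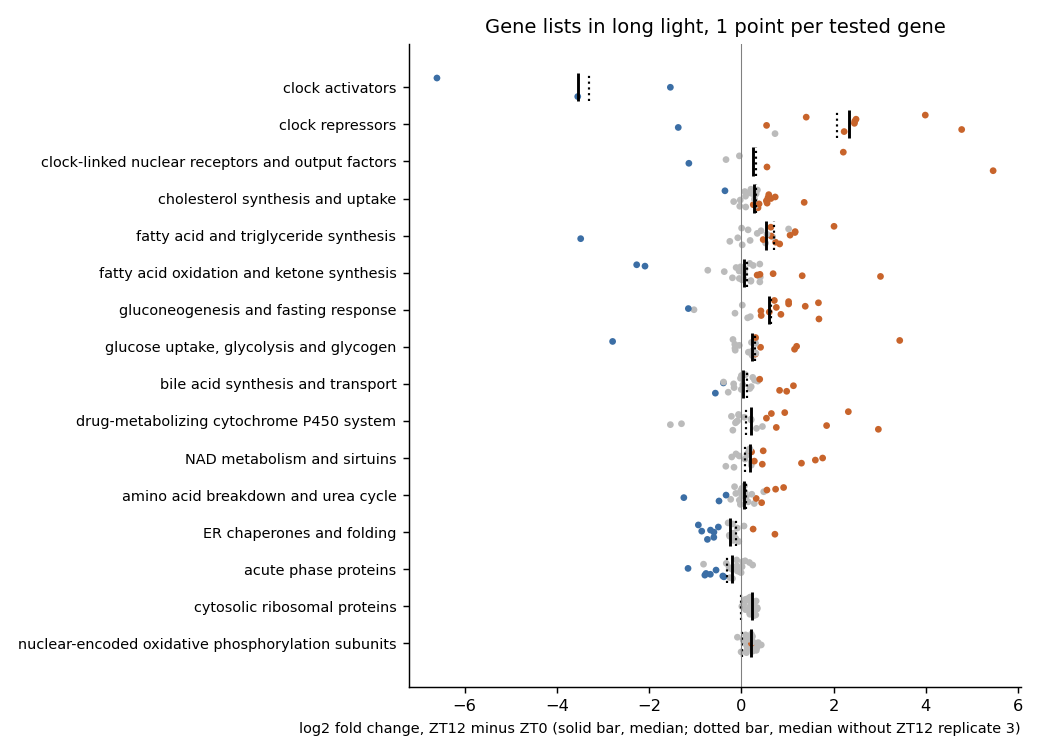
Log2 fold change, ZT12 minus ZT0 (x axis), of every tested gene in 16 lists (y axis); orange points were called higher, blue lower and grey not called, and points are spread vertically for view. Solid bars are list medians and dotted bars medians without ZT12 replicate 3; the ribosomal protein median moves from 0.23 to -0.02.

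Drug and heme metabolism genes that were called rose: in the cytochrome P450 system, 7 of the 21 tested genes rose and 0 fell (median log2 fold change 0.21; counts 7 and 0 with median 0.10 without ZT12 replicate 3, 7 and 0 with median 0.09 without ZT0 replicate 2, 7 and 0 without both). Por, the reductase that feeds electrons to all microsomal P450 enzymes, was at 65.1, 122, 77 and 75.3 CPM at ZT0 and 478, 421, 441 and 356 CPM at ZT12. No value overlapped, and the rise was 5.0-fold (log2 fold change 2.32 ± 0.18 SE, adjusted p = 1.12e-10). Alas1, which starts heme synthesis, was at 49.6, 144, 61 and 55.8 CPM at ZT0 and 905, 231, 669 and 634 CPM at ZT12. ZT0 replicate 2 was the highest ZT0 library and ZT12 replicate 2 the lowest at ZT12, yet the groups stayed apart (log2 fold change 2.97 ± 0.52 SE, adjusted p = 1.39e-04). Cyp2a5 and the xenobiotic receptor gene Nr1i2 (PXR) rose with 1.85 ± 0.20 (SE, adjusted p = 6.25e-08) and 0.65 ± 0.09 (SE, adjusted p = 9.71e-06). Cyp2a5 has near-identical family members, so its value is uncertain. In conjugation enzymes, 4 of the 21 tested genes rose and 0 fell (median log2 fold change 0.24; counts 5 and 0 with median 0.15 without ZT12 replicate 3, 4 and 0 with median 0.21 without ZT0 replicate 2, 5 and 0 without both), led by Ugt1a6a (0.85 ± 0.17 SE, adjusted p = 9.51e-04), which shares exons with other Ugt1a genes.

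In bile acid synthesis and transport, 4 of the 21 tested genes rose and 2 fell (median log2 fold change 0.03; counts 5 and 2 with median 0.12 without ZT12 replicate 3, 3 and 2 with median 0.09 without ZT0 replicate 2, 2 and 2 without both). The sterol exporter pair Abcg5 and Abcg8 rose together, with log2 fold changes of 0.98 ± 0.12 (SE, adjusted p = 3.83e-07) and 0.83 ± 0.12 (SE, adjusted p = 5.14e-06); their annotated bounds overlap on opposite strands. Abcb11, the bile salt export pump, fell (758 ± 49.6 CPM at ZT0 and 513 ± 81.6 CPM at ZT12, log2 fold change -0.56 ± 0.11 SE, adjusted p = 3.57e-04), and so did the receptor gene Fgfr4 (-0.39 ± 0.08 SE, adjusted p = 0.00113). Cyp7a1, the rate-limiting enzyme of bile acid synthesis, is given for its role and was named after its values were seen. It was at 208, 87.2, 239.7 and 123 CPM at ZT0 and 506, 336, 290.1 and 303 CPM at ZT12, with ZT0 spread widely but all ZT12 values above it (log2 fold change 1.13 ± 0.32 SE, adjusted p = 0.0171). Its call was lost without ZT0 replicate 2, at 0.92 (adjusted p = 0.0787), without ZT0 replicate 4, at 1.01 (adjusted p = 0.0604), and without ZT12 replicate 1, at 0.92 (adjusted p = 0.0647).

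In NAD metabolism, 7 of the 19 tested genes rose and 0 fell (median log2 fold change 0.18; counts 7 and 0 with median 0.08 without ZT12 replicate 3, 6 and 0 with median 0.20 without ZT0 replicate 2, 6 and 0 without both). Nampt, the rate-limiting enzyme of NAD salvage, was at 44.2, 46.9, 50.4 and 46.6 CPM at ZT0 and 145, 119, 74.2 and 126 CPM at ZT12. ZT12 replicate 3 was its lowest ZT12 value, still above ZT0 (log2 fold change 1.3 ± 0.14 SE, adjusted p = 8.31e-08, and 1.47 without that library). Nmrk1, a nicotinamide riboside kinase, rose 3.37-fold (10.7 ± 1.58 CPM at ZT0 and 36 ± 6.21 CPM at ZT12, log2 fold change 1.76 ± 0.17 SE, adjusted p = 1.21e-08). In amino acid breakdown and the urea cycle, 5 of the 23 tested genes rose and 3 fell (median log2 fold change 0.07; counts 4 and 2 with median 0.11 without ZT12 replicate 3, 7 and 2 with median 0.13 without ZT0 replicate 2, 5 and 2 without both). Gldc, of the glycine cleavage system, was at 577, 491, 522 and 535 CPM at ZT0 and 233, 263, 137 and 264 CPM at ZT12, and fell without overlap (log2 fold change -1.25 ± 0.13 SE, adjusted p = 3.07e-08). Cbs, of the transsulfuration pathway, fell (-0.48 ± 0.09 SE, adjusted p = 1.94e-04), and Prodh, which breaks down proline, rose (0.74 ± 0.12 SE, adjusted p = 3.40e-05).

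Called acute phase genes were lower at ZT12, while the balance of risen and fallen genes in the chaperone lists changed with the libraries used. Among chaperones of the endoplasmic reticulum, 2 of the 19 tested genes rose and 7 fell (median log2 fold change -0.25; counts 2 and 6 with median -0.11 without ZT12 replicate 3, 2 and 3 with median -0.15 without ZT0 replicate 2, 2 and 1 without both). The list median stayed negative in each of these fits, at -0.06 without both libraries. The fit on the 8 libraries alone called 1 higher and 1 lower. Hyou1 was at 136, 229, 113 and 165 CPM at ZT0 and 83.3, 93.9, 55.7 and 122 CPM at ZT12. Hspa5, the chief chaperone of the list and named after its values were seen, was at 733, 1025, 608 and 840.5 CPM at ZT0 and 519, 519.9, 458 and 627 CPM at ZT12. In both, ZT0 replicate 2 was the highest and ZT12 replicate 3 the lowest library, and without both of them neither was called, at -0.46 (adjusted p = 0.104) for Hyou1 and -0.38 (adjusted p = 0.127) for Hspa5, against -0.86 ± 0.20 (SE, adjusted p = 0.00279) and -0.59 ± 0.15 (SE, adjusted p = 0.00591) with all. Herpud1, of the degradation pathway, rose (0.73 ± 0.16 SE, adjusted p = 0.0023).

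In acute phase proteins, 0 of the 23 tested genes rose and 7 fell (median log2 fold change -0.20; counts 0 and 7 with median -0.30 without ZT12 replicate 3, 0 and 7 with median -0.05 without ZT0 replicate 2, 0 and 5 without both). Lbp, which binds bacterial lipopolysaccharide, was at 102, 167, 109 and 109.9 CPM at ZT0 and 54.7, 51.6, 54.4 and 58.3 CPM at ZT12. The ZT12 values were tightly grouped and all below ZT0 (log2 fold change -1.16 ± 0.15 SE, adjusted p = 2.23e-06). The 3 fibrinogen chain genes, Fga, Fgb and Fgg, fell together, with log2 fold changes of -0.79 ± 0.12 (SE, adjusted p = 3.02e-05), -0.67 ± 0.12 (SE, adjusted p = 1.39e-04) and -0.77 ± 0.11 (SE, adjusted p = 1.10e-05). Among heat shock chaperones, 1 of the 22 tested genes rose and 3 fell (median log2 fold change -0.08; counts 0 and 2 with median -0.03 without ZT12 replicate 3, 3 and 2 with median -0.05 without ZT0 replicate 2, 2 and 2 without both), led by Hspb1 (3.72 ± 0.746 CPM at ZT0 and 1.79 ± 0.675 CPM at ZT12, log2 fold change -1.06 ± 0.22 SE, adjusted p = 0.00114). Hspa8, the risen member, lost its call without ZT12 replicate 3 (adjusted p = 0.0776), ZT12 replicate 1 (0.0604), ZT0 replicate 1 (0.116) or ZT0 replicate 3 (0.115). Among ATF4 and stress response genes, 1 of the 16 tested genes rose and 2 fell (median log2 fold change -0.00435; counts 1 and 3 with median -0.07 without ZT12 replicate 3, 1 and 2 with median 0.04 without ZT0 replicate 2, 1 and 2 without both), with Atf5 (-0.62 ± 0.11 SE, adjusted p = 1.90e-04) and Ddit4 (-1.03 ± 0.23 SE, adjusted p = 0.00257) lower and Shmt2 (0.32 ± 0.07 SE, adjusted p = 0.00114) higher.

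In cell cycle regulators, 6 of the 23 tested genes rose and 1 fell (median log2 fold change 0.39; counts 5 and 1 with median 0.38 without ZT12 replicate 3, 4 and 1 with median 0.36 without ZT0 replicate 2, 4 and 1 without both). Wee1, a kinase that holds back mitosis and is a known clock target, was at 5.87, 4.74, 8.57 and 4.38 CPM at ZT0 and 24.4, 32.5, 12.7 and 26.6 CPM at ZT12. It rose without overlap, with ZT12 replicate 3 the lowest of its group (log2 fold change 2.06 ± 0.22 SE, adjusted p = 4.60e-08, and 2.29 without it). Plk3 and Ccne1 rose with 1.31 ± 0.25 (SE, adjusted p = 4.95e-04) and 1.14 ± 0.29 (SE, adjusted p = 0.00631), and the member that fell was Cdkn1a (-3.42 ± 0.28 SE, adjusted p = 4.66e-10). Genes known to respond to glucocorticoids did not move as a block: 4 of the 15 tested genes rose and 2 fell (median log2 fold change 0.28; counts 4 and 2 with median -0.20 without ZT12 replicate 3, 4 and 2 with median 0.58 without ZT0 replicate 2, 5 and 2 without both). Its median changed sign without ZT12 replicate 3, and the members called, such as Per1, Pck1 and Cdkn1a, stand in other lists as well.

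Genes of the ribosome and respiratory chain depended on ZT12 replicate 3. In cytosolic ribosomal proteins, 0 of the 29 tested genes rose and 0 fell (median log2 fold change 0.23; counts 0 and 0 with median -0.02 without ZT12 replicate 3, 0 and 0 with median 0.22 without ZT0 replicate 2, 0 and 0 without both), and in nuclear-encoded oxidative phosphorylation subunits, 1 of the 25 tested genes rose and 0 fell (median log2 fold change 0.20; counts 1 and 0 with median 0.01 without ZT12 replicate 3, 0 and 0 with median 0.13 without ZT0 replicate 2, 0 and 0 without both). Rpl32 was at 95.4, 105, 103 and 114 CPM at ZT0 and 111, 109, 205 and 102 CPM at ZT12, and Ndufb3 at 38.4, 39.2, 47.7 and 47.7 CPM at ZT0 and 43.7, 43, 92.2 and 43.4 CPM at ZT12. In each the high value was ZT12 replicate 3, and the other ZT12 values lay within the range of ZT0. Neither passed the test (0.34 ± 0.14 SE, adjusted p = 0.0948 and 0.36 ± 0.16 SE, adjusted p = 0.122). The part of transcript length in these values was not tested. Among mitochondrially encoded transcripts, 0 of the 7 tested genes rose and 0 fell (median log2 fold change 0.00372; counts 0 and 0 with median -0.05 without ZT12 replicate 3, 0 and 0 with median 0.01 without ZT0 replicate 2, 0 and 0 without both).

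Markers checked the tissue and other cell types. The 10 hepatocyte markers summed to between 138000 and 162000 CPM in the 8 libraries, with 0 members at 0. Kupffer cell markers summed to 385 to 567 CPM at ZT0 and 325 to 395 CPM at ZT12, and 1 of 12, Vsig4, was called lower (median log2 fold change -0.37), a call lost without ZT12 replicate 3, at -0.39 (adjusted p = 0.109), and without ZT0 replicate 2. Endothelial markers summed to 521 to 606 CPM at ZT0 and 414 to 538 CPM at ZT12, and 3 of 12 were called lower, among them Stab2 (-0.51 ± 0.09 SE, adjusted p = 9.59e-05), and 1 of 12 without ZT12 replicate 3 and ZT0 replicate 2. No member of these lists was at 0 in all 8 libraries. Fewer cells of a type and less RNA per cell cannot be told apart in such bulk samples, and the part of these cells in the lower acute phase and chaperone values was not tested. Cholangiocyte markers did not move together. Of the 6 tested, 0 were called higher and 2 lower, with log2 fold changes from -1.74 to 0.64 (median 0.25). The counts were the same without ZT12 replicate 3, without ZT0 replicate 2 and without both. Among the 2 called lower was Sox9. Sox9, also a gene of hepatocytes near the portal vein, was at 9.9, 13.2, 10 and 10.4 CPM at ZT0 and 2.34, 4.08, 2.75 and 3.86 CPM at ZT12, a 3.34-fold fall without overlap (log2 fold change -1.74 ± 0.23 SE, adjusted p = 1.90e-06), while Spp1 and Krt19 were not called.

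For most called genes ZT12 and ZT0 were also the extremes of the 4 sampling times in long light. Of the 1063 risen genes, 932 (87.7%) had their highest long light mean at ZT12 and 774 (72.8%) their lowest at ZT0. Of the 922 fallen genes, 837 (90.8%) were lowest at ZT12 and 690 (74.8%) highest at ZT0. Since the genes were chosen on these times, this is a description. By its means Alas1 was highest at ZT18, with 77.5 ± 44.3, 107 ± 40.8, 609.6 ± 279.8 and 617 ± 348 CPM at ZT0, ZT6, ZT12 and ZT18 (SD, n = 4). Its ZT12 and ZT18 means differed by far less than their SD, so which was higher is uncertain.

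The same contrast in short light, from other mice, ran the other way for most of these genes. The difference between photoperiods in ZT12 minus ZT0 was called for 3030 of 14456 genes (21%), among them 1770 of the 1985 called in long light (89.2%). The difference contains the long light change by which the 1985 were chosen, so the 89.2% is not comparable with the 21%. Of the 833 genes called in both photoperiods, 832 had opposite signs. Among the 8 smallest p-values of that difference were those of Ppard, Nr1d2, Pnkd, Tef, Clpx, Dtx4 and Elovl3. Clpx had a log2 fold change of -2.76 ± 0.18 in long light and 2.27 ± 0.18 in short light, a difference of -5.03 ± 0.26 (SE, adjusted p = 4.30e-15). Tef had 2.21 ± 0.14 and -1.75 ± 0.14, a difference of 3.96 ± 0.20 (SE, adjusted p = 4.30e-15). Upp2 and Por, described above for their rises, had short light values of -2.22 ± 0.20 and -0.92 ± 0.17. Exceptions to the opposite direction included the muscle gene Myh1, with -6.86 ± 1.96 in long light and -7.19 ± 4.2 in short light (SE). Its long light fall rested on ZT0 replicate 2, as described above, and its short light SE was large. These values therefore do not show a fall of Myh1 in both photoperiods. The xenobiotic receptor gene Nr1i2 had 0.65 ± 0.09 in long light and 0.07 ± 0.09 in short light, a difference of 0.58 ± 0.13 (SE, adjusted p = 0.00159).

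**Figure D5:**
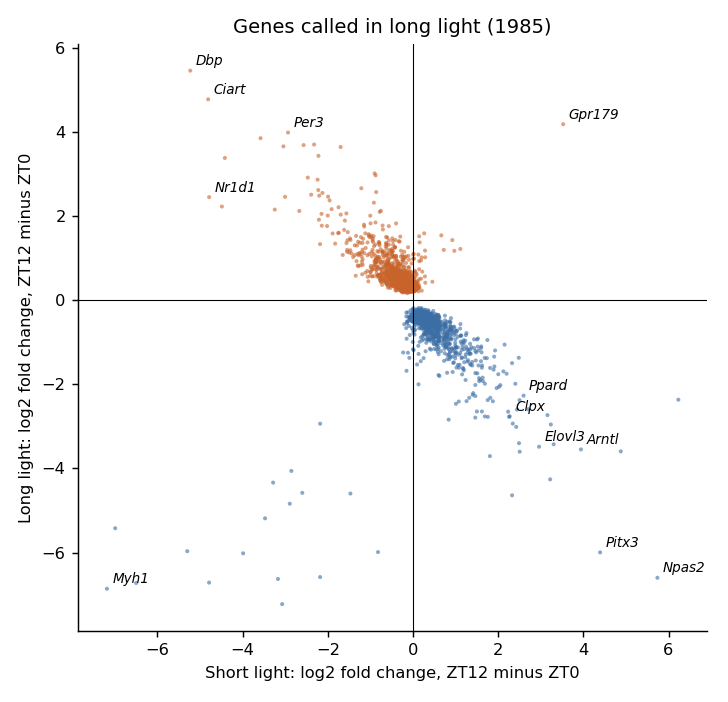
Log2 fold change, ZT12 minus ZT0, in long light (y axis) against short light (x axis) for the 1985 genes called in long light; orange points rose and blue points fell in long light. Most points lie in the upper left and lower right, from Dbp (5.46 in long, -5.23 in short light) to Npas2 (-6.6 and 5.74), and Myh1 lies in the lower left.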

How the data were processed

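Liver polyadenylated RNA of 32 mice was sequenced with a stranded kit, per the labels' protocols. The authors deposited raw read counts per gene, not normalized, and a table of log2 values, used only as an alternative. The submitters' processing notes name featureCounts 1.6.2, STAR 2.7.2b, bcl2fastq 2.20.0 and the genome build GRCm38 (mm10), with no order. The strand setting and annotation were not given in the sources used here. Library numbers in the labels tied every column to a sample.

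Of 55471 genes, 14456 passed filterByExpr and were tested with edgeR 4.0.16 (R 4.3.3; trimmed mean of M values factors, 1 fit of 8 group means over 32 libraries, quasi-likelihood F-test, Benjamini-Hochberg adjustment over all tested genes, threshold 0.05). A gene was called, or said to have risen or fallen, where its adjusted p was under 0.05. CPM use these factors. Gene bounds come from GENCODE M21 (GRCm38). The procedure was tested on simulated counts. Alternatives used DESeq2 1.42.0, limma 3.58.1, other scalings, filters and sets of libraries. Depth of 9095615 to 26524188 reads limits low genes, so a gene near 1 CPM rests on few reads.

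Named genes were the 12 largest rises and 12 largest falls among called genes with a mean of at least 1 CPM, skipping unnamed loci, all tested clock genes, 2 to 4 members with the smallest p per list, the 8 smallest p for the photoperiod difference, and the 6 genes farthest above and below for ZT12 replicate 3. Members, lists and rules were chosen with earlier results of these data known, so lists are described by counts and medians without a set test. Some genes that these rules take are not reported here. P-values measure the spread between the samples as labelled.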

Additional observations from a re-analysis of the deposited data

Results flagged for a closer look

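In 50 named genes, each group of 4 was searched for a library far from the other 3 (Dixon's criterion at 95%), which chance meets in about 1 in 20 groups. It was met in 14 of 100 groups, 9 of them in ZT0 replicate 2 and 3 in ZT12 replicate 3. Of these, 8 are muscle genes that were named for falls resting on ZT0 replicate 2 and vary together, so the count is not comparable with that chance rate. In ZT0 replicate 2 the 8 muscle genes stood out, with Myh1 at 24, Ckm at 11.9, Acta1 at 29.1, Atp2a1 at 18.8, Tnnt3 at 15, Myh2 at 12.5, Mybpc1 at 7.26 and Ttn at 19.5 CPM, where no other ZT0 library exceeded 1.91 CPM for any of them. In the same library Alas1 was at 144 CPM (49.6 to 61 in the others). In ZT12 replicate 3, Ppp1r3g was at 8.62 CPM (2.97 to 3.63), Bhlhe41 at 2.84 CPM (1.2 to 1.4) and Fbxw11 at 18.5 CPM (38.6 to 40.6). Per2 was at 27.8 CPM in ZT0 replicate 3 (36.9 to 38), and Tef at 56 CPM in ZT0 replicate 1 (68.8 to 70.8).

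The difference between photoperiods in ZT12 minus ZT0 is listed for 22 named genes, the 8 with its smallest p and the other called clock genes. All 22 passed the test of the difference (edgeR, adjusted p from 5.06e-16 to 0.000181), by which the 8 had been chosen. Named genes outside the 22 passed it too, such as Por (adjusted p = 2.31e-11) and Nr1i2 (0.00159). As long minus short light on the log2 scale, the genes that rose in long light gave 5.46 for Nr1d2, 3.96 for Tef, 4.69 for Per1, 1.88 for Per2, 6.92 for Per3, 0.96 for Cry2, 9.59 for Ciart, 6.72 for Bhlhe41, 7.24 for Nr1d1, 10.7 for Dbp, 1.1 for Hlf and 6.26 for Usp2. Those that fell gave -4.86 for Ppard, -2.58 for Pnkd, -5.03 for Clpx, -4.28 for Dtx4, -6.44 for Elovl3, -7.49 for Arntl, -2.59 for Clock, -12.3 for Npas2, -3.85 for Cry1 and -2.57 for Nfil3. The differences exceeded the long light change in every gene of the 22, since the short light change had the opposite sign.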

How the results depend on the processing

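The count of 1985 genes stayed within 1.5 times under DESeq2 and its size factors, limma-voom, limma on the authors' log2 values, the other scaling and both filters (1696 to 2102), and moved to 1248 with the 16 long light libraries and to 664 with the 8 compared; the cause was not tested. Leaving out each library in turn gave 1411 to 2514 genes, and leaving out ZT12 replicate 3 and ZT0 replicate 2 together, chosen after seeing the data, 1546. With the replicate block the count was 1916, and 3023 for the difference between photoperiods (3030 without it). Same-numbered libraries did not deviate together (correlations -0.00543, -0.0793, -0.0742 and -0.216). With so few libraries this cannot show whether the numbers pair the samples, which the labels do not state. The difference between photoperiods gave 2677 to 3355 genes with a library left out and 2317 to 3071 under the other settings. Of 127 called genes followed by name, 71 kept their call under every setting, 56 lost it under at least 1, and 0 changed sign, while Bhlhe40 gained a call under 4. The uncalled genes Gsk3b and Kdm5a changed sign in fits without ZT12 replicate 3 but were not called under any setting. Log2 fold changes of Gsk3b ran from -0.2 to 0.0782. Gsk3b was at 0.0289 without ZT12 replicate 3, 0.0782 without ZT0 replicate 2 as well, and 0.0193 with 8 libraries less ZT12 replicate 3. Those of Kdm5a ran from -0.258 to 0.0538. Kdm5a was at 0.0538 without ZT12 replicate 3, and 0.0445 with 8 libraries less ZT12 replicate 3.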

Other observations

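Several lists were not described above, and the counts are to be read against the 13.7% of all tested genes called. That share rose with level, as given below, and these lists were not matched for level. The fit on the 8 libraries alone called 0 higher and 1 lower in the proteasome and 0 and 2 in the growth hormone axis. It called 1 and 0 in autophagy, and 0 and 0 in iron handling and in ribosome biogenesis. In the proteasome, 5 of the 31 tested genes rose and 2 fell (median log2 fold change 0.13; counts 3 and 3 with median 0.04 without ZT12 replicate 3, 4 and 2 with median 0.14 without ZT0 replicate 2, 2 and 2 without both), with Psmd11, a lid subunit, lower (-0.46 ± 0.07 SE, adjusted p = 5.24e-05). In the growth hormone and IGF axis, 1 of the 17 tested genes rose and 2 fell (median log2 fold change 0.02; counts 3 and 2 with median 0.13 without ZT12 replicate 3, 1 and 2 with median 0.15 without ZT0 replicate 2, 3 and 1 without both), with Stat5b, the signal carrier of growth hormone, lower (-0.61 ± 0.09 SE, adjusted p = 2.52e-05). In autophagy, 2 of the 19 tested genes rose and 2 fell (median log2 fold change 0.05; counts 1 and 1 with median 0.04 without ZT12 replicate 3, 1 and 1 with median 0.06 without ZT0 replicate 2, 1 and 1 without both), with Bnip3, a mitophagy receptor, higher (0.55 ± 0.10 SE, adjusted p = 1.80e-04). In iron handling, 1 of the 16 tested genes rose and 1 fell (median log2 fold change 0.13; counts 1 and 1 with median 0.07 without ZT12 replicate 3, 0 and 1 with median 0.12 without ZT0 replicate 2, 2 and 1 without both), with the iron transporter gene Slc11a2 lower (-0.62 ± 0.11 SE, adjusted p = 1.83e-04). In ribosome biogenesis, 3 of the 22 tested genes rose and 0 fell (median log2 fold change 0.09; counts 3 and 0 with median 0.16 without ZT12 replicate 3, 2 and 0 with median 0.11 without ZT0 replicate 2, 3 and 0 without both), with Ncl (nucleolin) higher (0.28 ± 0.06 SE, adjusted p = 8.77e-04).

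The next lists had at most 1 called member each in the fit of all 32 libraries. Among interferon-stimulated genes, 0 of the 23 tested genes rose and 1 fell (median log2 fold change 0.08; counts 1 and 0 with median 0.00295 without ZT12 replicate 3, 0 and 1 with median 0.05 without ZT0 replicate 2, 1 and 0 without both). The member that fell, Rsad2, had an adjusted p of 0.0499 and lost its call in 14 of the other settings, among them without ZT12 replicate 3, at -0.52 (adjusted p = 0.166). Among immediate early genes, 0 of the 19 tested genes rose and 1 fell (median log2 fold change 0.29; counts 0 and 1 with median 0.01 without ZT12 replicate 3, 0 and 0 with median 0.17 without ZT0 replicate 2, 0 and 1 without both). In coagulation and complement, 1 of the 22 tested genes rose and 0 fell (median log2 fold change 0.02; counts 3 and 0 with median 0.06 without ZT12 replicate 3, 0 and 0 with median 0.05 without ZT0 replicate 2, 2 and 0 without both). The member that rose, Proc, lost its call in 13 settings, among them without ZT12 replicate 3, at 0.12 (adjusted p = 0.33). In major urinary proteins, a family of near-identical copies, 0 of the 11 tested genes rose and 0 fell (median log2 fold change 0.29; counts 0 and 0 with median 0.09 without ZT12 replicate 3, 0 and 0 with median 0.33 without ZT0 replicate 2, 0 and 0 without both). Among cold-inducible RNA-binding proteins, 1 of the 4 tested genes rose and 0 fell (median log2 fold change 0.15; counts 1 and 0 with median -0.01 without ZT12 replicate 3, 1 and 0 with median 0.12 without ZT0 replicate 2, 1 and 0 without both). Markers of lymphocytes (4 tested), neutrophils (1), erythrocytes (4), pancreas (1) and intestine (4) had 0 called. Stellate markers had 1 of 11 lower, Dcn. Its call was lost without ZT12 replicate 3, at -0.24 (adjusted p = 0.0842), and without ZT0 replicate 2, at -0.25 (adjusted p = 0.0966). Adipocyte markers had 1 of 4 lower, the lipase gene Lpl (-0.95 ± 0.24 SE, adjusted p = 0.00775). The Lpl call was lost without ZT0 replicate 2, at -0.67 (adjusted p = 0.0763).

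The share of genes called rose with level, from 5.73% in the lowest quartile of mean CPM (up to 2.52 CPM) through 11.3% and 16.3% to 21.6% in the highest (from 36.2 CPM). By exon length, the median log2 fold change fell from 0.09 in the shortest quartile through 0.02 and -0.03 to -0.08 in the longest. Without ZT12 replicate 3 these medians were -0.0263, 0.00138, -0.00427 and -0.0091.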
